A study of Homo sapiens with 12 samples.

Results

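The comparison concerned A549 cells carrying wild-type aryl hydrocarbon receptor (AHR) and A549 cells carrying AHR in which serine 489 was replaced by alanine (S489A). A549 is an established human lung adenocarcinoma line. Members were chosen by construct: the 3 libraries of the wild-type line (WT cells) and the 3 libraries of the S489A line (SA cells), 6 of the 12 libraries in the series. The 6 remaining libraries, 3 of the empty-vector line (V cells) and 3 of the line with serine 489 replaced by aspartate (S489D, SD cells), were used only to place the levels seen in WT and SA cells.

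All lines came from the same parental A549 culture, infected with a lentivirus that carried a hygromycin resistance gene behind an EF1a promoter and an IRES. WT and SA cells both received HA-tagged AHR and thus both overexpressed the receptor, and V cells received the vector alone. All were selected in 200 ug/ml hygromycin for 72 h and kept in RPMI medium with serum, and no AHR ligand is named. Libraries were made from poly(A) RNA. Each construct was represented by 1 stable line, so the effect of the construct and of the line cannot be told apart. The labels call the 3 libraries of a line biological replicates and say nothing more of separate cultures, so the p-values below measure the spread between these libraries.

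AHR is a ligand-activated transcription factor that sits in the cytoplasm with HSP90 chaperones, enters the nucleus when a ligand binds, pairs with ARNT and switches on genes such as CYP1A1, CYP1B1 and TIPARP. In lung epithelium it is known as the sensor of compounds in smoke and polluted air. PLK1 is a mitotic serine/threonine kinase, and S489 is the site at which the study placed its phosphorylation of AHR. The question put to this pair of lines was what differs when the serine can be phosphorylated and when it cannot.

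The exchanged codon is shown here because it is the only designed difference between the constructs. It lies in exon 10 of 11 of the AHR transcript on the plus strand of chromosome 7, GRCh38 position 17339290 to 17339292, inside coding sequence. The 75 bases around it, chr7:17339254-17339328, are given from GENCODE 44 with codon 489 in capitals.
AHR codon 489: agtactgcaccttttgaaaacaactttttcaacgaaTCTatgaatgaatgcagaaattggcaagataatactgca

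The exon that holds this codon also belongs to ENSG00000283321, a readthrough gene that overlaps AHR on the same strand, so expected counts of both were added before the construct was judged. CPM below stands for expected counts per 1000000 counts of the library, scaled by TMM factors. WT cells held 449, 483 and 474 CPM of this sum and SA cells 370, 409 and 402 CPM. All 3 WT libraries lay above all 3 SA libraries, and all 6 lay far above the 65.7 to 74.4 CPM of V cells. SD cells held 291, 305 and 291 CPM, below both.

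The mean was 469 ± 17.6 CPM in WT and 394 ± 20.5 CPM in SA cells (SD, n = 3), a ratio of 1.19. The log2 difference of WT minus SA was 0.26 (SE 0.049, 95% interval 0.16 to 0.36), with an adjusted p of 0.0330 by edgeR's quasi-likelihood test. The two-sided exact permutation test of the 3 against 3 CPM values gave p = 0.1, the smallest this design allows. The call did not survive the removal of any 1 WT library, nor that of SA replicate 2 or SA replicate 3. Whether the lines differ in AHR mRNA thus rests on a call that did not hold in most fits without 1 library. The log2 difference ran from 0.218 to 0.286 in those fits. With all libraries kept, the call held in DESeq2 (adjusted p = 0.000722) and in edgeR's exact test (adjusted p = 0.00149). It also held with all 12 libraries in 1 quasi-likelihood fit (adjusted p = 0.0456). It was lost once other pairs that share sequence were summed too (adjusted p = 0.0612, quasi-likelihood test). The part of the AHR level in the differences below was not tested. In bulk RNA, fewer cells with a transcript and less of it per cell cannot be told apart.

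**Figure D1:**
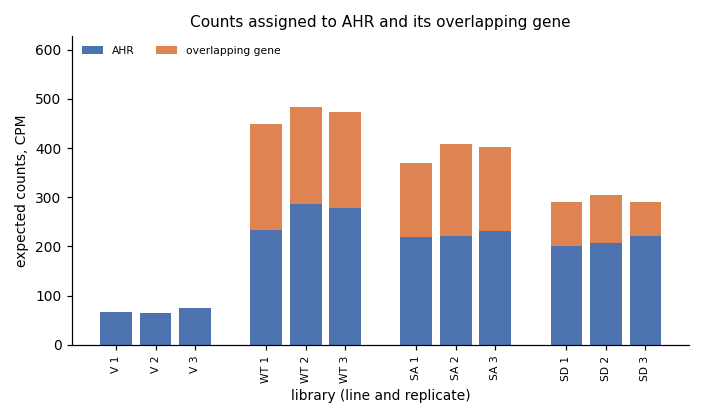
Expected counts, in CPM, assigned to AHR (blue) and to the readthrough gene that overlaps it (orange), stacked for each of the 12 libraries by line and replicate. The 3 WT libraries reach 449 to 483 CPM, the 3 SA libraries 370 to 409 CPM, and V libraries hold no counts of the overlapping gene.

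Of the summed counts, the overlapping gene took between 40.7% and 48.1% in WT and between 40.9% and 46.0% in SA cells, and 0 counts in every V library. Taken alone, AHR had a log2 difference of 0.26 (adjusted p = 0.136) and the overlapping gene one of 0.25 (adjusted p = 0.222), both in edgeR.

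Library totals ran from 7844045 to 11376008 expected counts in WT and from 9986096 to 11765576 in SA cells. A count of 3, taken as the floor of detection, was worth 0.255 to 0.383 CPM, and such floors cover counting error only. KRT8, KRT18 and KRT7, the keratins of simple epithelium, stood at 1550 CPM or more in all 6 libraries, whereas EPCAM did not pass 1.46 CPM and NKX2-1 had no count in either line. Of 21 markers of other cell types, 18 stayed under 1 CPM in each line. The 21 summed to between 50.9 and 53.9 CPM in WT and to between 55.2 and 59.1 CPM in SA cells, and their part in the results was not tested.

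Across the transcriptome the WT and SA lines differed little. Of 14942 genes tested, 12 changed at an adjusted p under 0.05 in edgeR (0.0803%), with 3 higher and 9 lower in WT cells. That count ran from 2 without WT replicate 2, through 4 and 6 without WT replicates 1 and 3, to 25 without SA replicate 1. At an unadjusted p under 0.05 there were 1093 genes (7.31%), 481 higher and 612 lower in WT. The libraries of the lines did not overlap for 1942 genes (13.0%), 869 with all WT values above SA and 1073 with all below. In all, 49.6% of the genes had a log2 difference above 0, and the median was -0.0015. The median standard error of a log2 difference was 0.106, and 0.083 for the 10256 genes at 10 CPM or more.

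The same design called more genes between either line and V cells: 774 of 14772 genes between WT and V (5.24%) and 1069 of 14913 between SA and V (7.17%). Between SD and WT cells 105 of 14828 genes were called (0.708%), and between SD and SA cells 33 of 15030 (0.220%). These comparisons share libraries with the one between WT and SA and with each other, so their counts are given side by side only.

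**Figure D2:**
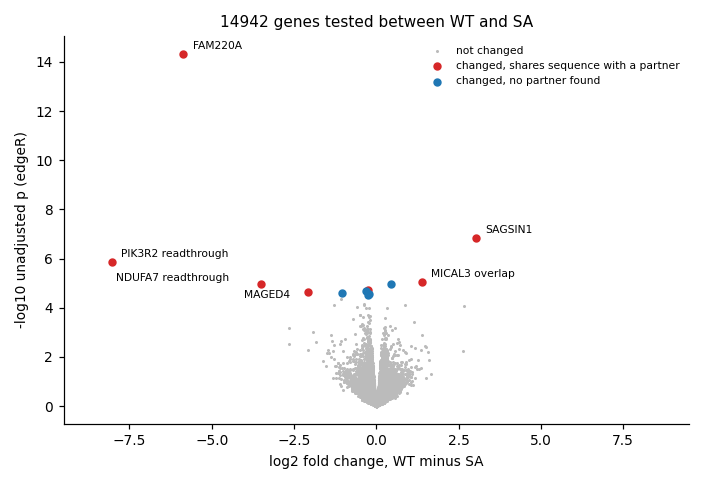
Each point is 1 of 14942 genes, with the log2 difference of WT minus SA on the horizontal axis and the -log10 of the unadjusted edgeR p on the vertical axis. Of the 12 changed genes, 7 share most of their transcript sequence with another gene (red) and 5 had no such partner (blue), and every changed gene with a log2 difference as large as that of ENSG00000093100 (1.39) in either direction is red.

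Among the 12 changed genes, those with the largest differences shared their sequence with another gene. Of the 12 changed genes, 7 had at least 50% of all 50-base sequences of their GENCODE 44 transcripts in 1 other gene. RSEM estimates how a read that fits several genes is divided among them, and the expected counts carry that estimate. The 2 genes with the smallest p formed such a pair. FAM220A codes for a protein that associates with the transcription factor STAT3, and SAGSIN1 lies in the same locus on the minus strand of chromosome 7. FAM220A spans 6329411 to 6348981 and SAGSIN1 spans 6329412 to 6348959 in the deposited GRCh38 coordinates.

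In GENCODE 44 the transcripts that hold the longest reading frame of each were the same 2220 bases, and only the reading frame differed. The frame of SAGSIN1 began at base 210 and ran for 204 bases, and that of FAM220A began at base 477 and ran for 777 bases.

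FAM220A held 0.253, 0 and 0.883 CPM in WT and 20.9, 18.8 and 24.5 CPM in SA cells. The lines did not overlap, and the log2 difference was -5.86 (SE 0.33, adjusted p = 6.94e-11 in edgeR). SAGSIN1 went the other way, with 21.4, 22.2 and 24.6 CPM in WT and 1.2, 6.96 and 0 CPM in SA cells. Its log2 difference was 3.02 (SE 0.41, adjusted p = 0.00108 in edgeR).

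Added together, the pair held 21.7, 22.2 and 25.5 CPM in WT and 22.1, 25.8 and 24.5 CPM in SA cells. The libraries overlapped, the log2 difference of the sum was -0.06 (95% interval -0.28 to 0.16) and its adjusted p was 0.933 in edgeR. The division between the pair also differed within the vector line. SAGSIN1 took 23.0 and 24.0 CPM in V replicates 1 and 2 and 0 in replicate 3, where FAM220A took 26.0 CPM.

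**Figure D3:**
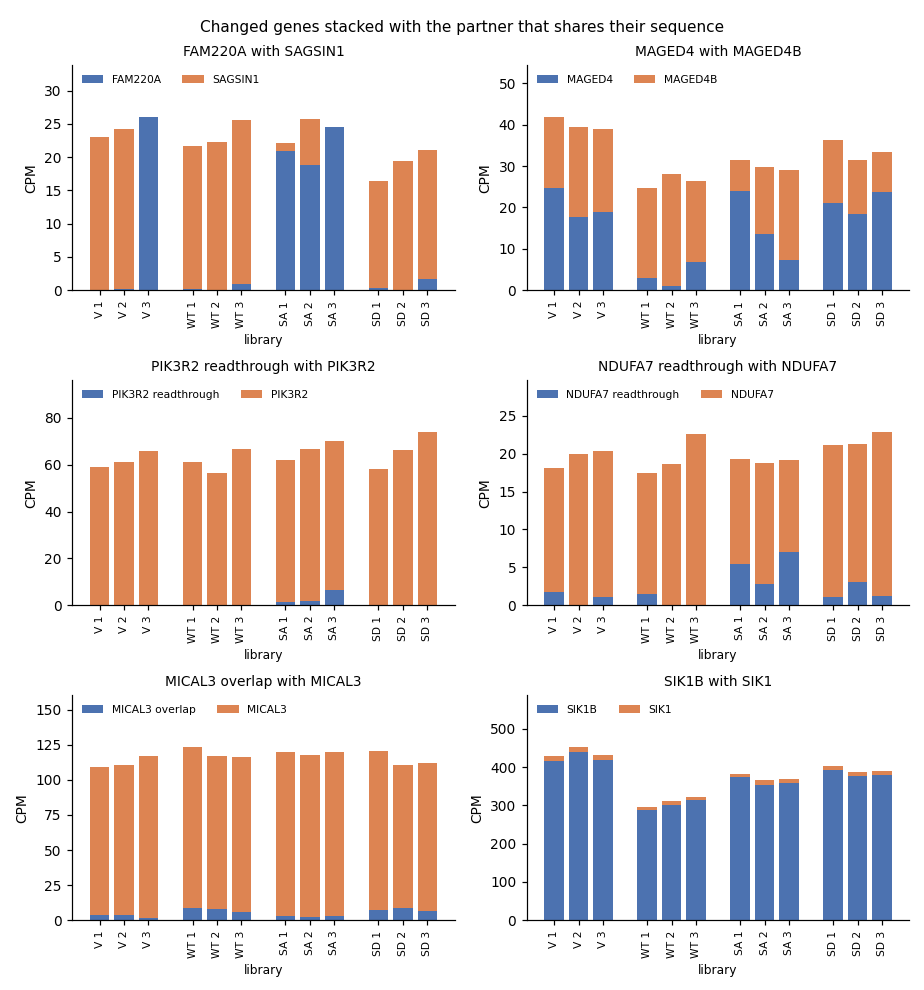
Expected counts in CPM, by library of the 4 lines, for 6 changed genes (blue) stacked with the gene that shares their sequence (orange). The height of the FAM220A and SAGSIN1 stack is 21.7 to 25.8 CPM across WT and SA libraries while its colour changes, and the SIK1B and SIK1 stack, at 295 to 322 CPM in WT and 367 to 382 CPM in SA cells, has an adjusted p of 0.0612 where the other 5 stacks have 0.696 to 0.993.

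MAGED4 and MAGED4B, members of the melanoma antigen family on the X chromosome, were compared in the same way. In GENCODE 44 the transcripts that hold the longest reading frame of each were identical over 2618 bases, with 0 differences in a coding frame of 2271 bases. MAGED4 held 2.91, 0.972 and 6.85 CPM in WT and 23.9, 13.5 and 7.27 CPM in SA cells, a log2 difference of -2.09 (SE 0.39, adjusted p = 0.0363 in edgeR). SA replicate 3 lay close to the highest WT library. MAGED4B alone had a log2 difference of 0.58 and an adjusted p of 0.501. The sum was 26.3 ± 1.61 CPM in WT and 30.1 ± 1.38 CPM in SA cells (SD, n = 3), with a log2 difference of -0.18 (95% interval -0.37 to 0.01, adjusted p = 0.696).

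A further 3 changed genes were low and shared exons with a more abundant neighbour. ENSG00000268173, a readthrough gene on chromosome 19 from position 18153158 to 18178117, had 0 counts in every WT library and 1.2, 1.72 and 6.65 CPM in SA cells. The SA mean of 3.19 CPM, raised by SA replicate 3, was 9.75 times 0.327 CPM, the mean WT floor of 3 counts. The ratio of these means is no lower bound for each library. The gene was called lower in WT (adjusted p = 0.00658 in edgeR). With PIK3R2, a regulatory subunit of phosphoinositide 3-kinase that holds 76.5% of its sequence, the sum was 61.4 ± 5.25 CPM in WT and 66.3 ± 4.01 CPM in SA cells (adjusted p = 0.783).

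ENSG00000167774, another readthrough gene on chromosome 19, held 1.52, 0 and 0 CPM in WT and 5.40, 2.75 and 7.09 CPM in SA cells (log2 difference -3.50, adjusted p = 0.0273 in edgeR). Its sum with NDUFA7, a subunit of respiratory complex I, was 19.6 ± 2.70 CPM in WT and 19.1 ± 0.251 CPM in SA cells (log2 difference 0.04, adjusted p = 0.960). ENSG00000093100, a noncoding RNA gene that overlaps MICAL3, held 8.36, 8.04 and 5.52 CPM in WT and 2.60, 2.58 and 3.19 CPM in SA cells (log2 difference 1.39, adjusted p = 0.0273). MICAL3 acts on actin filaments, and its sum with ENSG00000093100 was 119 CPM in both lines (log2 difference 0.00, 95% interval -0.11 to 0.12, adjusted p = 0.993).

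SIK1B was the abundant member of its pair. It is annotated on chromosome 21 from position 6111131 to 6123778, where GENCODE 44 marks it as an artifactual duplication of SIK1, the salt-inducible kinase, with 94.2% of its 50-base sequences in SIK1. It held 289, 302 and 313 CPM in WT and 374, 354 and 359 CPM in SA cells, with no overlap (log2 difference -0.26, SE 0.049, adjusted p = 0.0363 in edgeR). SIK1B took between 96.5% and 97.8% of the pair in all 6 libraries. The sum with SIK1 was 310 ± 13.4 CPM in WT and 373 ± 7.79 CPM in SA cells, with a log2 difference of -0.26 (SE 0.048, unadjusted p = 1.37e-05, adjusted p = 0.0612). V cells held 429, 452 and 433 CPM of the same sum.

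In all, 10 pairs were summed: those found among the 30 genes with the smallest p, AHR with its overlapping gene included, which took in 11 of the 30. No summed pair passed an adjusted p of 0.05 in edgeR's quasi-likelihood test once all 10 were summed. AHR with its overlapping gene stood at 0.0612 there, against 0.0330 with no other pair summed, at a log2 difference of 0.26 in both. In the table with the sums, 0 of 14932 genes changed in edgeR's quasi-likelihood test. Of those, 1084 genes had an unadjusted p under 0.05 and 7 an adjusted p under 0.1, and the smallest adjusted p was 0.0612. Only pairs among the genes of top rank were summed, so the sums took small p values out of the table. The Benjamini-Hochberg adjustment then raises the adjusted p of the genes that remain, even where their log2 difference stays. The count of 0 thus does not show that no gene differs. DESeq2 called 8 genes in the same table, edgeR's exact test 23 genes and the fit with the replicate number as a block 16 genes.

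The 5 changed genes without such a partner were MUC5AC, MT-RNR2, DLC1, FOSL2 and DDIT4. They were picked by p in the same libraries, so that their lines do not overlap, as in 13.0% of all genes, is no further support. Each kept its log2 difference after the sums and stood at an adjusted p of 0.0612 there. DESeq2 on the summed table gave adjusted p values of 0.0254 for MUC5AC, 0.645 for MT-RNR2, 0.0379 for DLC1, 0.000722 for FOSL2 and 0.000966 for DDIT4. In that table edgeR's exact test called all 5, with 0.0036 for MT-RNR2, and so did the fit with the replicate number as a block (1.53e-05 for MT-RNR2). In the table without sums, leaving out a single library ended the call for MUC5AC, DLC1, FOSL2 and DDIT4 in 5 of 6 cases, all but SA replicate 1, and for MT-RNR2 in 4 of 6 cases, all but SA replicates 1 and 3. Over all alternative fits of that table the log2 difference kept its sign. It ran from 0.41 to 0.49 for MUC5AC, -1.17 to -0.93 for DLC1 and -0.24 to -0.22 for FOSL2. For DDIT4 it ran from -0.26 to -0.19, and for MT-RNR2 from -0.40 to -0.25.

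FOSL2 (FRA-2), a subunit of the AP-1 transcription factor, had the tightest values. It held 384, 383 and 377 CPM in WT and 448, 447 and 451 CPM in SA cells, on chromosome 2 from position 28392448 to 28417317. The lines did not overlap, and FOSL2 was lower in WT by a log2 difference of -0.23 (SE 0.044, adjusted p = 0.0364 in edgeR). V cells held 370, 369 and 347 CPM, near WT, and SD cells 498, 518 and 523 CPM, above SA. Against V cells, FOSL2 was higher in SA by 0.30 (adjusted p = 6.9e-05), whereas WT minus V was 0.07 (adjusted p = 0.411). SD exceeded WT by 0.43 (adjusted p = 4.15e-05), and SD minus SA was 0.20 (adjusted p = 0.175).

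DDIT4 (REDD1), an inhibitor of mTORC1 that responds to stress and low oxygen, held 365, 378 and 376 CPM in WT and 437, 429 and 458 CPM in SA cells. Again no WT library reached an SA library, and the log2 difference was -0.24 (SE 0.046, adjusted p = 0.0380 in edgeR). V cells held 345, 354 and 341 CPM. SD cells held 354, 380 and 427 CPM, from below the WT libraries to just under the SA libraries, with SD minus WT at 0.05 (adjusted p = 0.824) and SD minus SA at -0.19 (adjusted p = 0.361). SA was above V by 0.34 (adjusted p = 1.4e-05), and WT minus V was 0.10 (adjusted p = 0.180). The call between WT and SA was also lost once the GC trend of each library was removed.

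MUC5AC, a gel-forming airway mucin, was the single changed gene without a partner that was higher in WT. It held 48.9, 45.3 and 48.9 CPM in WT and 35.6, 33.6 and 36.2 CPM in SA cells, on chromosome 11 from position 1157953 to 1201138. The lines did not overlap, and the log2 difference was 0.44 (SE 0.079, adjusted p = 0.0273 in edgeR). V cells ranged from 35.9 to 46.9 CPM and SD cells from 22 to 33.8 CPM, so the V libraries ran from the SA range to the WT range. SD minus WT was -0.73 (adjusted p = 0.000765), and SD minus SA was -0.29 (adjusted p = 0.479).

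DLC1, a GTPase-activating protein and a brake on cell contractility, was low in every library. It held 3.93, 4.24 and 5.19 CPM in WT and 7.90, 10.7 and 9.13 CPM in SA cells, with no overlap (log2 difference -1.05, SE 0.20, adjusted p = 0.0364 in edgeR). V cells held 6.24, 5.94 and 5.90 CPM and SD cells 5.39, 6.97 and 5.90 CPM, between WT and SA. SA exceeded V by 0.61 (adjusted p = 0.0430), and WT minus V was -0.44 (adjusted p = 0.329).

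MT-RNR2, the large ribosomal RNA of mitochondria, held 10800, 10600 and 9320 CPM in WT and 13800, 13300 and 11300 CPM in SA cells. The lines did not overlap (log2 difference -0.32, SE 0.060, adjusted p = 0.0363 in edgeR), but the lowest SA library was close to the highest WT library. By replicate number, V cells held 13000, 11200 and 11100 CPM and SD cells 15600, 13000 and 11200 CPM. In every line replicate 1 was thus the highest and replicate 3 the lowest, and SA was above WT at each number. The labels do not say what libraries of the same number share, and the part of this order in the spread was not tested. MT-RNR1, the small ribosomal RNA, had a log2 difference of -0.21 (unadjusted p = 0.000971, adjusted p = 0.249). The 2 mitochondrial rRNAs made up 1.04% to 1.19% of counts in WT and 1.24% to 1.51% in SA libraries. The part of this share in the result was not tested.

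**Figure D4:**
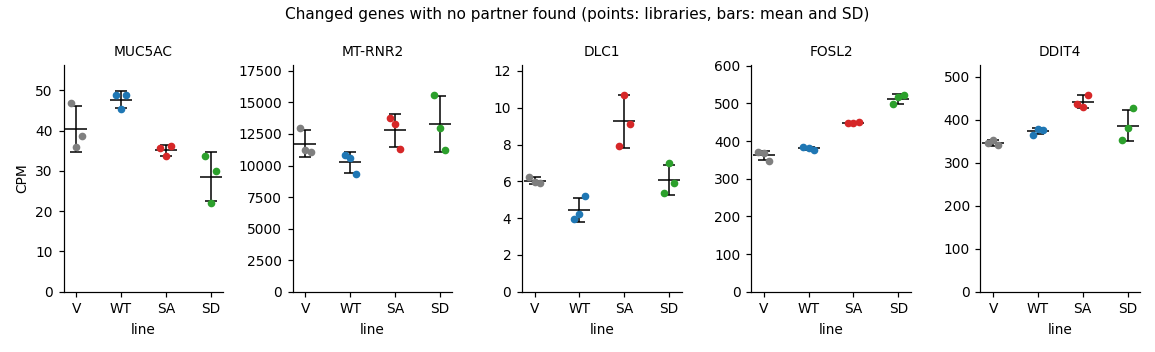
CPM of MUC5AC, MT-RNR2, DLC1, FOSL2 and DDIT4 in the 3 libraries of each line (points), with the mean and SD (bars), each axis starting at 0. The 5 genes were picked by p in these WT and SA libraries, and their WT and SA points do not overlap, as for 13.0% of all genes tested. For FOSL2 the WT mean of 381 CPM lies near the V mean of 362 CPM, and the SA mean of 449 CPM lies between WT and the SD mean of 513 CPM.

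The genes next in rank did not pass the test. Up to rank 30 they comprised 18 genes, with adjusted p from 0.0521 to 0.149. Several were lower in WT: VGF, a secreted neuropeptide precursor, held 45.2 ± 3.92 CPM in WT and 58.7 ± 2.15 CPM in SA cells (log2 difference -0.38, adjusted p = 0.0686). SLC16A3, the lactate exporter MCT4, held 172 ± 5.28 and 215 ± 25.1 CPM (-0.31, adjusted p = 0.0691). IGFN1, an immunoglobulin-domain protein of muscle, held 22.5 ± 2.38 and 33.9 ± 7.19 CPM (-0.58, adjusted p = 0.0691). PBXIP1, which binds PBX homeodomain proteins, held 42.7 ± 2.35 and 56.0 ± 4.88 CPM (-0.38, adjusted p = 0.0686).

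JUNB, an AP-1 subunit, had a log2 difference of -0.40 (adjusted p = 0.131), PHLDA1 one of -0.20 (adjusted p = 0.129) and ZFP36L1, an mRNA decay factor, one of -0.22 (adjusted p = 0.131). BBC3 (PUMA), a proapoptotic p53 target, had -0.49 (adjusted p = 0.122), and MT-ND6, the complex I subunit coded on the light strand, had -0.26 (adjusted p = 0.122). ASNS, asparagine synthetase, was on the other side, with 90.1 ± 3.89 CPM in WT and 71.9 ± 6.15 CPM in SA cells (0.33, adjusted p = 0.0691). FGB, the beta chain of fibrinogen, stood at 1.10 to 2.56 CPM in WT and 0.172 to 0.400 CPM in SA cells, the latter around the floor (adjusted p = 0.0686).

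The linker histone gene H1FX had a log2 difference of -0.24 (adjusted p = 0.0691), SRPX, an extracellular sushi-repeat protein, one of -0.48 (adjusted p = 0.122), and LINGO1, a leucine-rich membrane protein, one of -0.71 (adjusted p = 0.149). AHR itself held rank 29. A further 3 shared sequence with a partner: TIMM23B-AGAP6 with AGAP6 (adjusted p = 0.0521, sum 0.854), ENSG00000263020 with LY6G5B (0.0686, sum 0.864) and DERPC with CHTF8 (0.0686, sum 0.986).

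None of the classical AHR targets passed the test between the lines. CYP1B1, a xenobiotic-metabolizing cytochrome, held 72.4, 82.9 and 80.9 CPM in WT and 81.4, 79.9 and 83.5 CPM in SA cells, with overlapping libraries and a log2 difference of -0.04 (95% interval -0.18 to 0.09, adjusted p = 0.915 in edgeR). TIPARP, an ADP-ribosyltransferase that feeds back on AHR, held 29.7, 29.5 and 35.2 CPM in WT and 29.5, 29.1 and 33.7 CPM in SA cells (0.04, interval -0.17 to 0.24, adjusted p = 0.962). NQO1, a quinone reductase, held 994, 1040 and 1050 CPM in WT and 995, 1050 and 1040 CPM in SA cells (0.00, interval -0.09 to 0.09, adjusted p = 0.992).

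ALDH3A1, an aldehyde dehydrogenase, had a log2 difference of -0.02 (interval -0.11 to 0.08, adjusted p = 0.966). CYP1A1, the most responsive AHR target, stood at 0 to 0.442 CPM in WT and 0.355 to 0.900 CPM in SA cells, too low to be tested. Of 16 listed AHR targets, 10 were tested, 5 higher and 5 lower in WT with a median of -0.01, and none changed. Here 4 alternative settings of 14 turned the sign of that median. NFE2L2 (NRF2), the antioxidant transcription factor, had the only unadjusted p under 0.05 among them: 57.3, 67.1 and 58.6 CPM in WT, 52.6, 53.2 and 46.8 CPM in SA cells, log2 difference 0.27 (adjusted p = 0.330).

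Against V cells, CYP1B1, TIPARP and NQO1 were higher in both AHR lines, and the 2 comparisons share the V libraries. ALDH3A1 was not called in either, with WT minus V at 0.02 (adjusted p = 0.849) and SA minus V at 0.04 (adjusted p = 0.737). CYP1B1 was 60.2, 59.4 and 67.4 CPM in V cells, below all 6 libraries of WT and SA. WT minus V was 0.34 (adjusted p = 0.00275) and SA minus V was 0.38 (adjusted p = 0.000475) for CYP1B1. For TIPARP these values were 0.51 (adjusted p = 0.00755) and 0.48 (adjusted p = 0.00950), and for NQO1 0.21 (adjusted p = 0.000511) and 0.21 (adjusted p = 0.00230). CDH1 (E-cadherin), the epithelial adhesion protein, was lower than in V cells, with log2 differences of -0.60 for WT (adjusted p = 7.74e-09) and -0.60 for SA (adjusted p = 1.18e-07).

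PLK1 and DIO2, the kinase and the deiodinase of interest to the study, did not pass the test between WT and SA cells. PLK1 held 181, 175 and 178 CPM in WT and 186, 190 and 181 CPM in SA cells (log2 difference -0.06, 95% interval -0.16 to 0.05, adjusted p = 0.832 in edgeR). DIO2, the deiodinase that activates thyroid hormone, held 16.1, 15.9 and 14.6 CPM in WT and 14.8, 13.9 and 14.9 CPM in SA cells (0.10, interval -0.15 to 0.35, adjusted p = 0.892). SD cells held 22.4, 21.5 and 23.6 CPM of DIO2, above all WT and SA libraries. SD minus WT was 0.54 (adjusted p = 0.0231) and SD minus SA was 0.64 (adjusted p = 0.0126), 2 comparisons with the same SD libraries.

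CDH1 held 116, 113 and 107 CPM in WT and 118, 116 and 103 CPM in SA cells (log2 difference 0.00, interval -0.13 to 0.13, adjusted p = 0.992). VIM (vimentin), a mesenchymal filament protein, had 0.01 (interval -0.08 to 0.10, adjusted p = 0.973), and CDH2 (N-cadherin) had -0.15 (interval -0.33 to 0.03, adjusted p = 0.742). Of 17 mesenchymal markers tested, 12 were higher and 5 lower in WT (median 0.08). Of 14 epithelial markers, 7 were higher and 7 lower (median 0.01), with 4 alternative settings of 14 turning that sign. No member of either list changed.

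GC content moved with the sign of the differences. Genes were divided by GC content into 4 bins of like size. In the bin with the least GC, 62.3% were higher in WT (median log2 difference 0.03), followed by 57.5% (0.02) and 46.4% (-0.01), and by 32.2% (-0.06) in the bin with the most. The gap between the outer bins within a library overlapped between lines: 0.04, -0.10 and -0.01 in WT and 0.14, 0.01 and 0.05 in SA cells, on the log2 scale. The 6 lists with the most uneven counts are given first, with their median GC content and with their median after the GC trend was removed from each library. All lists are described by counts alone, beside 49.6% of all genes higher in WT. Their counts of an unadjusted p under 0.05 in edgeR stand beside 7.31% of all genes.

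Hypoxia and glycolysis genes leaned below: 30 of 33 were lower in WT (median -0.05, median GC 52.8%), 7 with an unadjusted p under 0.05, and none changed. With the GC trend removed 27 were lower (median -0.06). ADM (adrenomedullin) held 27.7 ± 2.53 CPM in WT and 34.8 ± 3.41 CPM in SA cells (log2 difference -0.33, adjusted p = 0.419). NDRG1 had -0.18 (adjusted p = 0.580), PFKL, a phosphofructokinase, had -0.16 (adjusted p = 0.578), and CA12, a carbonic anhydrase, had -0.11 (adjusted p = 0.625).

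Of 25 p53 targets, 24 were lower in WT (median -0.05, median GC 50.5%), and 20 were lower with the GC trend removed (median -0.04). Of the 25, 2 had an unadjusted p under 0.05 in edgeR, near the 7.31% of all genes, and none changed. Besides BBC3, the second was CDKN1A (p21), a brake on cyclin-dependent kinases, with 108, 115 and 125 CPM in WT and 126, 141 and 131 CPM in SA cells (log2 difference -0.18, adjusted p = 0.501). MDM2, the p53 ubiquitin ligase and a sensitive target, had -0.01. A549 cells carry wild-type p53.

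Of 23 TGF-beta and BMP signalling genes, 18 were lower in WT (median -0.06, median GC 51.8%), 17 with the GC trend removed (median -0.05). The ligands TGFB1 (log2 difference -0.14, adjusted p = 0.501) and TGFB2 (-0.14, adjusted p = 0.599) and the target ID1 (-0.11, adjusted p = 0.623) were among the 5 with an unadjusted p under 0.05, and none changed. Of 15 genes of MHC class I and antigen processing, 13 were lower (median -0.10, median GC 53.9%), and 13 again with the GC trend removed (median -0.09). HLA-B (-0.55, adjusted p = 0.613), HLA-C (-0.18, adjusted p = 0.623) and HLA-E (-0.15, adjusted p = 0.661) had an unadjusted p under 0.05. Of their 50-base sequences HLA-B shared 1.59% with HLA-C, and HLA-E 2.26% with HLA-G, below the 50% limit used for the pairs. None of the 15 genes changed.

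DNA replication genes leaned the other way: 24 of 30 were higher in WT (median 0.07, median GC 47.7%), and 26 with the GC trend removed (median 0.06). CDC6, which loads the replicative helicase, held 82.7, 91.0 and 77.9 CPM in WT and 69.6, 72.5 and 75.9 CPM in SA cells (log2 difference 0.21, adjusted p = 0.473). GINS3 (0.35, adjusted p = 0.499), RFC2 (0.22, adjusted p = 0.599) and POLE (0.12, adjusted p = 0.680) were among the 6 with an unadjusted p under 0.05, and none changed. Of 16 genes of the AHR complex and its partners, 13 were higher (median 0.05, median GC 45.7%), and 13 with the GC trend removed (median 0.04). The coactivator NCOA2 had 0.23 (adjusted p = 0.563), and none changed.

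**Figure D5:**
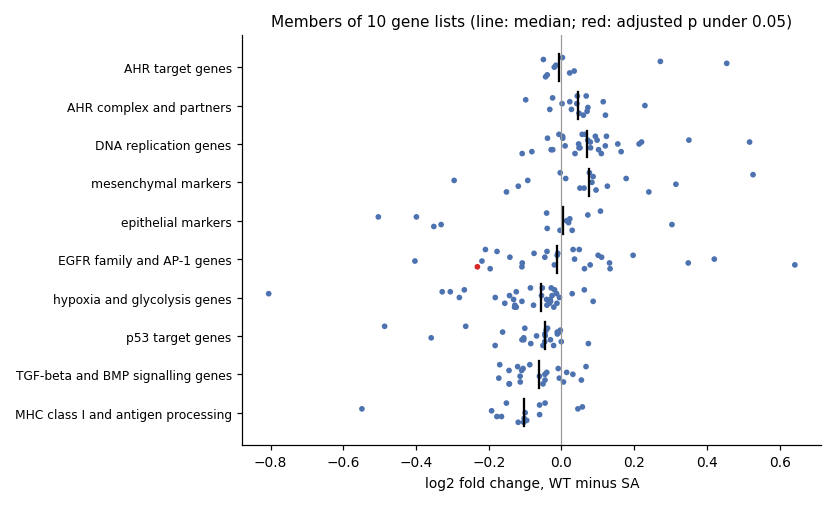
Log2 differences of WT minus SA for the tested members of 10 gene lists (points), with the median of each list (black line) and genes at an adjusted p under 0.05 in red. The medians run from -0.10 for MHC class I genes to 0.08 for mesenchymal markers, and FOSL2 is the only red point.

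Of 28 lists, 4 held a changed gene. Among EGFR family and AP-1 genes, 13 were higher and 15 lower in WT (median -0.01, turning sign under 4 of 14 settings, and 0.01 with the GC trend removed), 8 with an unadjusted p under 0.05, of which FOSL2 changed. IER2, an immediate early gene, had -0.21 (adjusted p = 0.589) and DUSP5, a phosphatase of ERK, had -0.22 (adjusted p = 0.597). DDIT4 was the changed member of 27 ATF4 and unfolded protein response genes, of which 16 were higher (median 0.02, and 0.03 with the GC trend removed). DLC1 was that of 20 YAP and TEAD targets, of which 9 were higher (median 0.00, and -0.01 with the GC trend removed). MT-RNR2 was that of 15 mitochondrially encoded genes, of which 10 were higher (median 0.04, turning sign under 1 of 14 settings, and 0.02 with the GC trend removed), while MT-ND5, a complex I subunit, had -0.13 (adjusted p = 0.613).

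The other lists held no changed gene. Higher in WT were 15 of 23 mitotic kinase and spindle checkpoint genes, among which INCENP of the chromosomal passenger complex had -0.13 (adjusted p = 0.672), 9 of 22 interferon-stimulated genes, 12 of 20 NF-kB targets and chemokines, and 8 of 25 NRF2 antioxidant genes. Also higher were 8 of 16 heat shock genes. The 3 of these 16 with an unadjusted p under 0.05 in edgeR went both ways. HSPA8 had 0.13 (adjusted p = 0.473), HSPA1B had -0.17 (adjusted p = 0.501) and HSF1 had -0.13 (adjusted p = 0.643). Higher too were 12 of 28 sterol and fatty acid synthesis genes, 17 of 28 nuclear genes of oxidative phosphorylation, and 5 of 11 histone genes without poly(A) tails. For matrix and adhesion these counts were 12 of 25 collagens and matrix genes, with COL5A1 at -0.24 (adjusted p = 0.280), 7 of 18 integrins and cadherins, and 6 of 15 proteases and inhibitors, with PLAUR at -0.23 (adjusted p = 0.501). They were 5 of 18 for drug metabolism enzymes, 4 of 12 for thyroid hormone genes, 5 of 13 for lung epithelial and A549 markers, with CEACAM6 at 0.28 (adjusted p = 0.501), and 1 of 3 for markers of other cell types.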

How the data were processed

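RNA sequencing libraries of 4 A549 lines, 3 per line, were read from 1 deposited table of 60623 genes. The authors trimmed reads with Trimmomatic 0.39 and made gene-level expected counts with RSEM on GRCh38, per the submitters' processing notes and the study's methods. The aligner settings and annotation release are not given in the sources used here. A second deposited table holds the authors' own fold changes, p and q values and was not used, and 0 columns of per-sample values were left unassigned. Expected counts were rounded. Genes passing edgeR's filterByExpr (minimum count 10, total 15) in the 3 WT and 3 SA libraries were scaled by TMM and tested two-sided with edgeR 4.0.16 (quasi-likelihood test, R 4.3.3), with Benjamini-Hochberg adjustment over all genes tested. Fits against V and SD cells used the 6 libraries of each pair. Positive values are higher in the first line named, and the confidence level was 95%. The procedure was tested on simulated counts whose fold changes exceeded those of most changed genes without a partner. Division of reads between genes was not simulated, so that test does not reach either case.

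Named were all genes at an adjusted p under 0.05, the next by p to 30 genes, AHR with its overlapping gene, PLK1, DIO2, CYP1A1, CYP1B1, TIPARP, NQO1, ALDH3A1, CDH1, CDH2 and VIM, and up to 4 members per list with an unadjusted p under 0.05. EPCAM, NKX2-1, KRT7, KRT8, KRT18 and MDM2 were named besides these. Members and lists were chosen with earlier results of these data known. Shared sequence was the share of a gene's 50-base sequences, over its GENCODE 44 transcripts, found in 1 other gene (limit 50%), and it was looked for in the named genes only. The release may differ from the authors', and 74 of 98 genes looked up had the same start and end. Alternatives were other filters, DESeq2 1.42.0, edgeR's exact test, all 12 libraries in 1 fit, a replicate block and each library left out; removal of the GC trend and the summing of pairs were chosen after seeing the data. Totals of 7844045 to 11765576 counts set the precision. A sequence withheld from this text is not reported here.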

Additional observations from a re-analysis of the deposited data

How the results depend on the processing

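Against 12 changed genes, the count was 103 with every gene of at least 1 count tested, 36 by edgeR's exact test, 22 at an adjusted p under 0.1, 5 with all 12 libraries in 1 fit and 0 with pairs that share sequence summed. It ran from 2 (without WT replicate 2) to 25 (without SA replicate 1) when a library was left out, with 4 without WT replicate 1 and 6 without WT replicate 3. DESeq2 gave 15, DESeq2 size factors 12, a minimum of 10 counts in every library 16 and removal of the GC trend 17, of which 11 were among the 12. Apart from the effect of the sums on the adjustment, given above, the cause of these shifts was not tested. FAM220A kept its call in 13 fits, and each of the other 11 genes lost it in at least 2.

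The AHR difference stayed between 0.22 and 0.29 in every fit. It lost its call with AHR alone (0.26), the overlapping gene alone (0.25) and the sums of other pairs in the table (0.26, adjusted p = 0.0612), and in 5 of 6 fits without a library, where the 6 values ran from 0.218 to 0.286.

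With the replicate number as a block the count was 25 (16 with the pairs summed) and the AHR call held (adjusted p = 0.00473). Deviations of same-numbered WT and SA libraries correlated at 0.131, 0.0789 and 0.0479 over 11801 genes. Each was above the best value with another number (-0.0568, 0.012 and 0.00808). The labels do not say what libraries of the same number share, and the main fit did not use the numbers. Whether the numbers pair the libraries was not tested.

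Values near 0 that turned sign, none past the threshold, belonged to 6 genes. Without 1 library each, CYP1B1 ran from -0.074 to 0.011, TIPARP from -0.053 to 0.11 (also -0.0071), NQO1 from -0.017 to 0.026 (also -0.010), ALDH3A1 from -0.051 to 0.025 (also 0.0053), CDH1 from -0.062 to 0.036 (also 0.028 and 0.018) and VIM from -0.016 to 0.037 (also -0.010). With the GC trend removed NQO1 was at -0.022, ALDH3A1 at 0.029 and VIM at -0.0026, and with every gene of at least 1 count NQO1 was at -0.0031.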
